A study of Mus musculus with 12 samples.

Results

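Desmosomes, tight junctions and gap junctions join the cells of an epithelium, and the genes of their main protein families were followed through skin fibrosis in mice. The members were all rows of the expression table whose symbol is Dsg, Dsc, Pkp, Cldn, Gja, Gjb or Gjc followed by a number, together with Dsp, Jup, Ppl, Evpl and Perp. This rule uses no measured value, but the members were chosen with earlier results of these data known. It found 59 genes among 23359 rows, of which 18 were desmosome genes, 25 were claudins and 16 were connexins. Levels are in FPKM, a fragment number scaled for transcript length and library size, so levels of different genes can be set side by side. A gene was tested if it reached 1 FPKM in at least 3 of the 12 libraries, which left 41 members (17 desmosome genes, 11 claudins and 13 connexins) among 13761 tested genes.

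RNA sequencing covered macrodissected skin of C3H/HeJ mice, with 4 groups and 3 libraries in each. Normal skin has no time point in its labels. Fibrotic skin formed 2 groups, with time points of 6 and of 20 weeks. The last group, called treated skin from here on, was 20-week fibrotic skin treated by transplantation of CD36highCD90+ fibroblasts. All groups are of the same strain, and the labels do not give the animals' age, how fibrosis was brought about, how the transplanted cells were obtained, or which mice were pooled, if any. No group given a sham transplant or other cells was analysed here. Nothing states that libraries of 1 group stem from different mice, so p-values measure the spread between these libraries, which may be technical.

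In a desmosome, the desmogleins (Dsg) and desmocollins (Dsc) are cadherins that bind across the gap between cells. Inside the cell they hold plakoglobin (Jup) and the plakophilins (Pkp), which connect through desmoplakin (Dsp) to keratin filaments, so that the epidermis resists pulling. Claudins (Cldn) span the membrane at tight junctions, which in skin seal the granular layer, and connexins (Gja, Gjb, Gjc) form channels through which neighbouring cells exchange ions and small molecules. The members are not expressed alike across skin layers. Dsg1 and Dsc1 proteins dominate in the upper epidermis, Dsg2 and Pkp2 in simple epithelia and follicles, and Dsg4 in the hair shaft. Gjb2 and Gjb6, scarce in resting epidermis, are known from wounded and psoriatic epidermis, and mutations in either cause deafness and skin disease.

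The results turn most on Gjb2, Gjb6 and Gja1. Gjb2 and Gjb6 are neighbours on chromosome 14, and Gja1 is the connexin with the highest level in normal skin. The 250 bases before the RefSeq start of each gene (assembly GRCm38.p6, 5′ to 3′ on the gene's strand) are shown because these 3 genes were higher in all fibrotic libraries. That also held for other members, such as Gjb1, Dsc1 and Dsg1b. The Gjb2 window is chr14:57104703-57104952 on the minus strand, the Gjb6 window is chr14:57133612-57133861 on the minus strand, and the Gja1 window is chr10:56377050-56377299 on the plus strand. Capitals mark every match to 1 of 6 motifs searched on both strands.
Gjb2: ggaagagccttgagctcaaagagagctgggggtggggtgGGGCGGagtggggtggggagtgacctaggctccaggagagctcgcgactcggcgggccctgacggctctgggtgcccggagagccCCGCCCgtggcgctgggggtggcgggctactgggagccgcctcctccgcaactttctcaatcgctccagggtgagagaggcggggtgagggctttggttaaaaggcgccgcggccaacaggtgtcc
Gjb6: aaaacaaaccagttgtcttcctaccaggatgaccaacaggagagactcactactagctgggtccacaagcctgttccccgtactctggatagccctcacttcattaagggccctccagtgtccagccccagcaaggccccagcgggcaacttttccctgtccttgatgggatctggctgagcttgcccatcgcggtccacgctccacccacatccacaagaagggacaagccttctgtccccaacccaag
Gja1: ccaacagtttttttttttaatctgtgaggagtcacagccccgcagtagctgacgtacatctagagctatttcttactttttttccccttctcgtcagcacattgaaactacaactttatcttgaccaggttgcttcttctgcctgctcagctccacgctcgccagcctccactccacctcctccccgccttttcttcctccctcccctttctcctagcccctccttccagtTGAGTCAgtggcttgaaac
The motifs were AP-1 (TGANTCA), the GC box (GGGCGG), the TATA box (TATAAA), the CCAAT box (CCAAT), a STAT motif (TTCNNNGAA) and a Grainyhead motif (AACCGGTT). No match in these 3 windows overlapped another. The Gjb2 window holds 69.2% G and C and 2 GC boxes, at -211 to -206 and, on the other strand, at -126 to -121, counted back from the start. The Gjb6 window holds 56.8% G and C and no match. The Gja1 window holds 50% G and C and 1 AP-1 match, at -19 to -13. Among all 32851 promoter windows of this length in RefSeq's table, AP-1 was found in 6.75% and the GC box in 32.7%. The TATA box was in 12.4%, the CCAAT box in 33.8%, the STAT motif in 7.02% and the Grainyhead motif in 0.116%. Of the 41 tested members, 20 had a window in that table. The GC box was in 15 of the 20, the CCAAT box in 8, AP-1 in 3 (Cldn15, Cldn4 and Gja1), the TATA box in 3, the STAT motif in 1 and the Grainyhead motif in 0. These matches describe letters in the windows and no binding was measured.

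Skin markers were detected in all libraries. All 11 general epithelial genes and all 11 dermal fibroblast genes were tested, and none of them was at 0 in any library. The table gives no read counts, so no counting error can be attached to a level. In treated skin the 3 libraries differed more among themselves than in the other groups. The median standard deviation over the 41 tested members was 0.47 on the log2(FPKM + 1) scale in treated skin, against 0.25 in normal skin, 0.21 at 6 weeks and 0.19 at 20 weeks. Over all tested genes it was also largest in treated skin, at 0.24, against 0.15, 0.14 and 0.15 in the same order. In every member, 1 of the 3 treated libraries lies farthest from the middle one. This was replicate 1 in 27 of the 41 members, replicate 2 in 5 and replicate 3 in 9. Replicate 1 was nearer to the mean of fibrotic skin at 20 weeks than to that of normal skin for 29 members. For replicates 2 and 3 these counts were 7 and 9. They were not made over all tested genes, so they may not be particular to the members. The calls in treated skin are therefore also given without replicate 1. Replicate 1 was singled out by the levels of these same members, so p-values of fits without it follow a choice made on the values tested. No call between treated and fibrotic skin at 20 weeks held in every fit that left out 1 library.

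**Figure D1:**
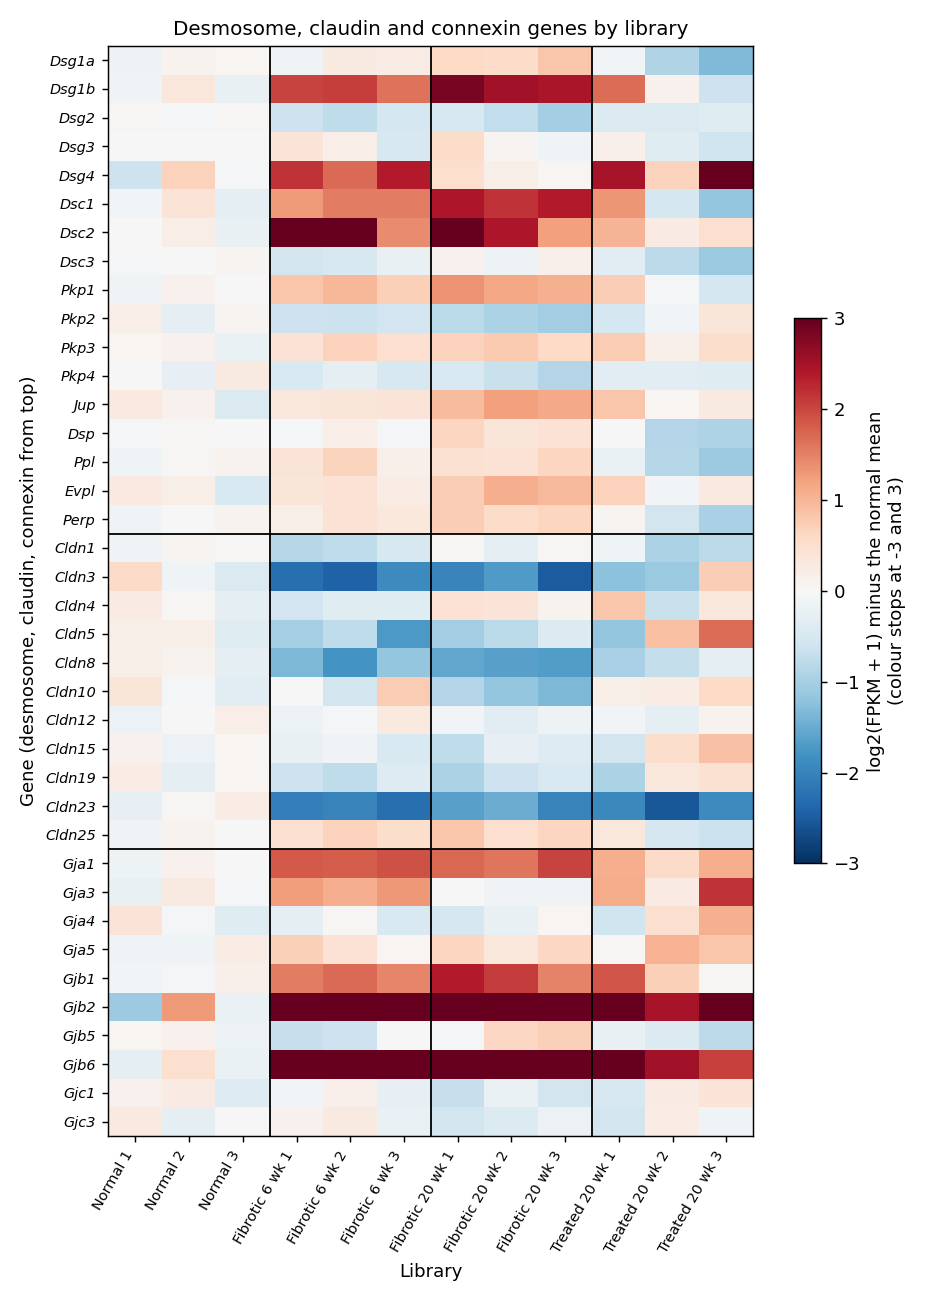
Level of 38 of the 41 tested members (rows, by family) in each of the 12 libraries (columns, by group), as log2(FPKM + 1) minus the mean of the 3 normal libraries. Red is higher and blue lower than normal skin, and the colour stops at -3 and 3. Gjb2 and Gjb6 are deep red in the 6 fibrotic libraries, Cldn23 is blue in all 9 libraries that are not normal, and treated replicate 1 looks more like fibrotic skin at 20 weeks than replicates 2 and 3 do.

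Fibrotic skin held more mRNA of several connexins and of many desmosome genes than normal skin, and less of several claudins. The largest differences were those of Gjb2 and Gjb6, with mean levels 70.5-fold and 63.5-fold higher at 6 weeks. At 6 weeks, 11 of the 41 tested members were called higher and 8 lower than in normal skin, which is 46.3% of them against 39.3% of all tested genes. At 20 weeks, 14 were called higher and 7 lower, or 51.2% against 33.5% of all tested genes. Calls required an adjusted p under 0.05 (limma on log2(FPKM + 1), 2-sided, with Benjamini-Hochberg adjustment over all 13761 genes). By direction, 17.6% of all tested genes were higher and 21.7% lower at 6 weeks, and 15.3% were higher and 18.2% lower at 20 weeks.

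The families did not move alike. Connexins had 5 calls higher and 1 lower at 6 weeks and 6 higher and 0 lower at 20 weeks. Desmosome genes had 6 higher and 3 lower at 6 weeks and 7 higher and 3 lower at 20 weeks. Claudins had 0 higher and 4 lower at 6 weeks and 1 higher and 4 lower at 20 weeks. The median log2 difference over the members was 0.07 at 6 weeks and 0.30 at 20 weeks, beside -0.05 and -0.04 over all tested genes. At 6 weeks the split depended on scaling: with libraries rescaled after muscle, hair shaft and cornified envelope genes were left out, 8 members were called higher and 11 lower. The share over all tested genes is not given for that scaling, so the shift may not be particular to the members. Both comparisons use the same 3 normal libraries. In fits of only the 6 libraries compared, 12 members were called higher and 10 lower at 6 weeks, beside 44.7% of all tested genes, and 19 higher and 9 lower at 20 weeks, beside 38.7% of all tested genes. At 6 weeks this added Cldn25 as higher and Cldn5, Cldn19 and Dsc3 as lower, and ended the call of Pkp4. At 20 weeks it added Dsg1a, Dsp, Perp, Ppl and Gja5 as higher and Cldn5 and Cldn19 as lower. All other calls against normal skin were kept in these fits at both times.

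**Figure D2:**
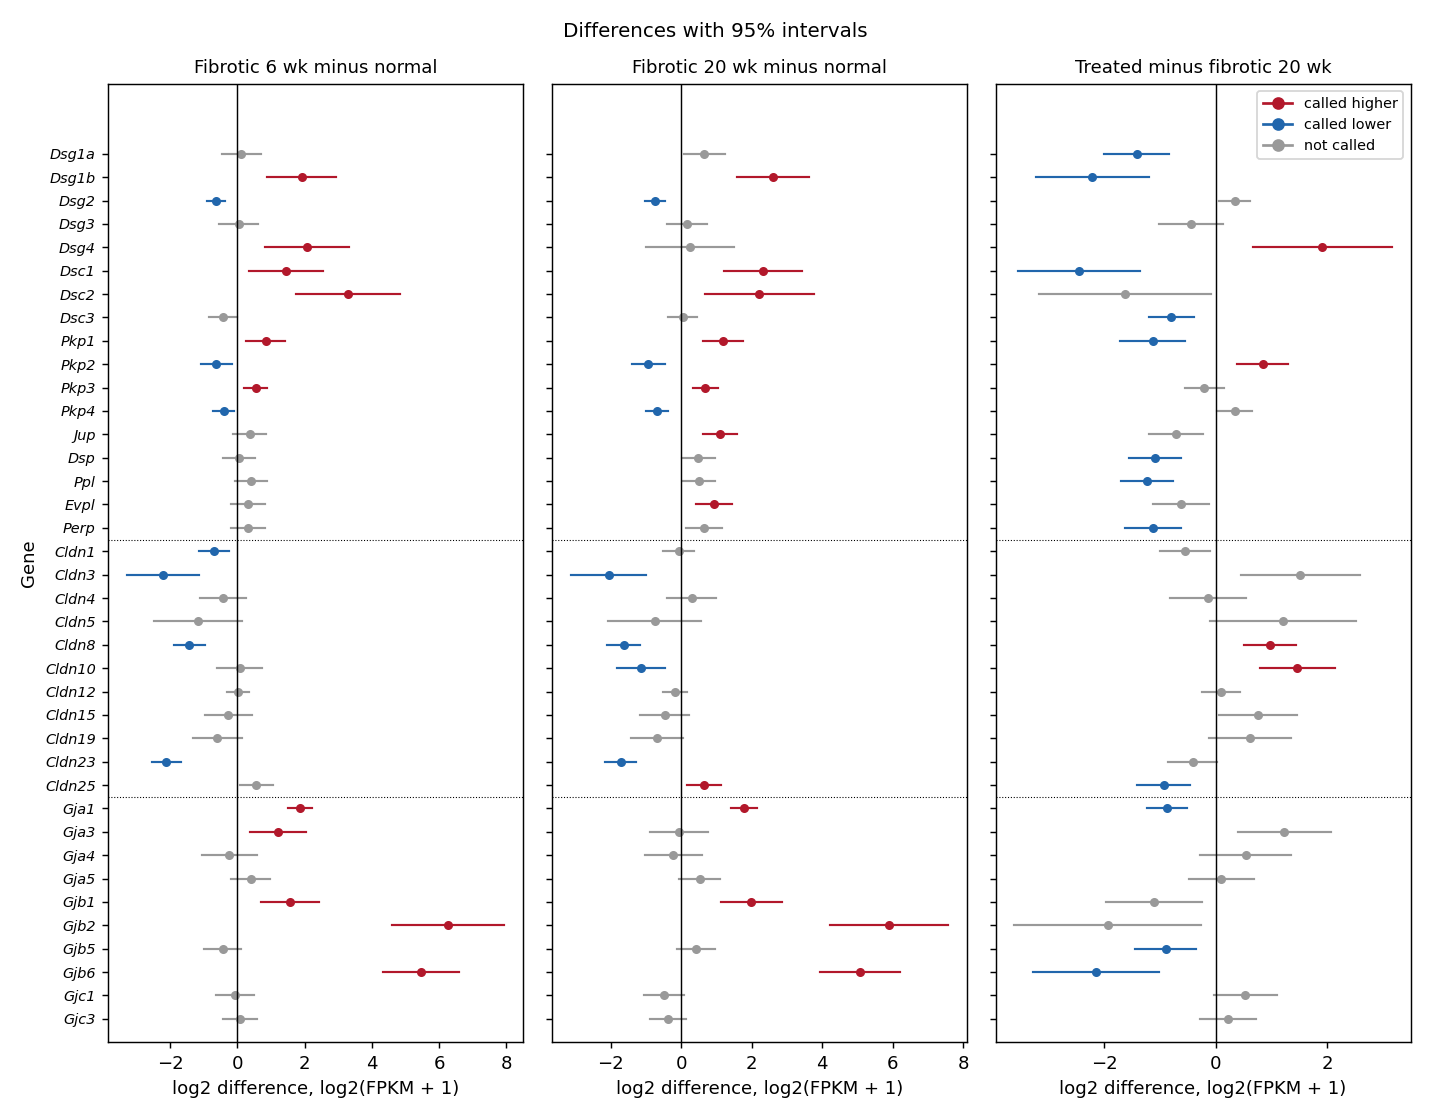
Difference in mean log2(FPKM + 1) for 38 of the 41 tested members (rows) in 3 comparisons (panels), each with its 95% interval from limma; the horizontal scale differs between panels. Red marks members called higher, blue those called lower and grey those not called. Gjb2 and Gjb6 lie farthest to the right against normal skin, and 3 of the 7 red desmosome points of the middle panel (Dsc1, Dsg1b and Pkp1) are blue in the right one, where 12 members were called lower in treated skin.

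Among the beta connexins, Gjb2 encodes a channel protein that normal epidermis holds at a low level. It was at 3.47, 21.8 and 7.28 FPKM in normal skin, 846, 996 and 456 at 6 weeks, 799, 604 and 365 at 20 weeks, and 424, 51.9 and 139.7 in treated skin, in the order of replicates 1, 2 and 3 as in all values that follow. All 9 fibrotic and treated libraries lay above the 3 normal ones, and only treated replicates 2 and 3 lay below every fibrotic library. The difference from normal skin was 6.27 ± 0.76 (SE, adjusted p = 0.000397) at 6 weeks and 5.89 ± 0.76 (SE, adjusted p = 0.000782) at 20 weeks on the log2(FPKM + 1) scale. The normal libraries spread widely, with replicate 2 highest. In treated skin the level was still above normal by 3.96 ± 0.76 (SE, adjusted p = 0.00835), and its difference from fibrotic skin at 20 weeks was -1.94 ± 0.76 (SE, adjusted p = 0.103), which did not pass.

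Gjb6, the neighbour of Gjb2, encodes a connexin that can share channels with it. Its levels were 1.69, 3.6 and 1.83 FPKM in normal skin, 153, 209 and 90.3 at 6 weeks, 139.7, 111 and 82.1 at 20 weeks, and 58.7, 17.9 and 12.5 in treated skin. Normal skin, treated skin and both fibrotic groups together followed each other upward with no overlap. The differences from normal skin were 5.45 ± 0.51 (SE, adjusted p = 0.000147) at 6 weeks and 5.06 ± 0.51 (SE, adjusted p = 0.00036) at 20 weeks. In treated skin Gjb6 fell by 2.14 ± 0.51 on the log2 scale (SE, adjusted p = 0.0245) against fibrotic skin at 20 weeks, and stayed above normal by 2.92 ± 0.51 (SE, adjusted p = 0.00628). The call against fibrotic skin was lost without any fibrotic 20-week library or without treated replicate 2 or 3 (adjusted p up to 0.0878). Another connexin gene of this stretch of chromosome 14, Gja3, did not share this pattern and is described with the alpha connexins.

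Gjb1, a connexin best known from liver and from the myelin of peripheral nerve, was low throughout. It stood at 0.487, 0.491 and 0.73 FPKM in normal skin, 3.52, 4.06 and 3.35 at 6 weeks, 7.1, 5.69 and 3.41 at 20 weeks, and 4.79, 1.58 and 0.597 in treated skin. The normal libraries lay below all 6 fibrotic ones, and treated skin reached from the fibrotic range in replicate 1 to the normal range in replicate 3. It rose by 1.57 ± 0.39 (SE, adjusted p = 0.011) at 6 weeks and by 1.99 ± 0.39 (SE, adjusted p = 0.0047) at 20 weeks. The Schwann cell list had 0 of 11 members higher and 2 lower at 6 weeks and 0 called at 20 weeks. Its summed level was 180.1 to 252 FPKM in normal skin, 115 to 144 at 6 weeks, 97.2 to 160.2 at 20 weeks and 116 to 262 in treated skin.

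Another beta connexin, Gjb5, is typical of differentiating keratinocytes. Gjb5 was at 54.5, 57 and 46 FPKM in normal skin, 32.2, 33.4 and 53.1 at 6 weeks, 50.5, 80.3 and 85.8 at 20 weeks, and 44.9, 38.8 and 29.7 in treated skin. Gjb5 was not called at either time against normal skin, and in treated skin it fell by 0.90 ± 0.25 on the log2 scale (SE, adjusted p = 0.0367) against fibrotic skin at 20 weeks. That call was lost with the replicate number as a block (adjusted p = 0.0633). It was also lost without fibrotic 20-week replicate 2 or 3 or treated replicate 2 or 3 (adjusted p up to 0.135).

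Gja1 encodes the most widespread connexin, made by keratinocytes, fibroblasts and vessels alike. It was at 103, 125 and 115 FPKM in normal skin, 412, 406 and 429.8 at 6 weeks, 376, 351 and 469 at 20 weeks, and 245, 169.8 and 242 in treated skin. The groups were narrow and did not overlap, except that both fibrotic groups covered the same range. Gja1 rose by 1.86 ± 0.16 (SE, adjusted p = 0.000115) at 6 weeks and by 1.79 ± 0.16 (SE, adjusted p = 0.000293) at 20 weeks, fell by 0.87 ± 0.16 on the log2 scale (SE, adjusted p = 0.0166) in treated against fibrotic skin at 20 weeks, and remained above normal by 0.92 ± 0.16 (SE, adjusted p = 0.00655). Here and elsewhere in whole skin, fewer cells of a type and less RNA per cell cannot be told apart.

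Gja3, which is best known from the lens, was near the limit of the test, with 5 libraries at 1 FPKM or more. Its levels were 0, 0.413 and 0.117 FPKM in normal skin, 1.76, 1.5 and 1.86 at 6 weeks, 0.182, 0.0852 and 0.0902 at 20 weeks, and 1.52, 0.378 and 4.22 in treated skin. The 6-week libraries and treated replicates 1 and 3 stood above all other libraries. Gja3 rose by 1.21 ± 0.37 (SE, adjusted p = 0.0275) at 6 weeks and differed by 1.23 ± 0.37 (SE, adjusted p = 0.0511) between treated and fibrotic skin at 20 weeks, which did not pass. The 6-week call was lost without normal replicate 1 or 3 or without any fibrotic 6-week library (adjusted p up to 0.087). That call held in the fit of only the 6 libraries compared (limma, adjusted p = 0.00244). Gja3 was high in the libraries in which the hair shaft list was high. That list's summed level was 78.8 to 733 FPKM in normal skin, 1549 to 2094 at 6 weeks, 184 to 386 at 20 weeks and 517 to 7639 in treated skin, and its part in the result was not tested.

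The vascular connexins Gja4 and Gja5 were not called in any comparison in the fit of 12 libraries, while Gja5 was called higher at 20 weeks than in normal skin in the fit of 6 (0.54, limma, adjusted p = 0.034). Gja4 was at 4.5, 3.11 and 2.24 FPKM in normal skin, 2.44, 3.25 and 2.04 at 6 weeks, 1.96, 2.58 and 3.34 at 20 weeks, and 1.77, 4.83 and 7.72 in treated skin, and Gja5 ranged from 0.672 to 2.77 FPKM over the 12 libraries. Treated replicates 2 and 3 held the highest Gja4 levels and treated replicate 1 the lowest. The blood endothelium list (14 genes, 0 called in any comparison) had summed levels of 88.1 to 138 FPKM in normal skin, 83.1 to 134 at 6 weeks, 93.6 to 139.6 at 20 weeks and 62.3 to 264 in treated skin. Within treated skin the list stood at 62.3, 203 and 264 FPKM, in the same order as Gja4, and its part in the Gja4 levels was not tested.

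Gamma connexins were low. Gjc1, a connexin of smooth muscle and the heart's conduction system, ranged from 1.28 to 3.85 FPKM. Gjc3, a glial connexin, ranged from 0.315 to 1.35 FPKM, and neither was called in any comparison in the fit of 12 libraries. Without treated replicate 1, Gjc1 was called higher in treated than in fibrotic skin at 20 weeks (0.80, limma, adjusted p = 0.0177, descriptive only).

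**Figure D3:**
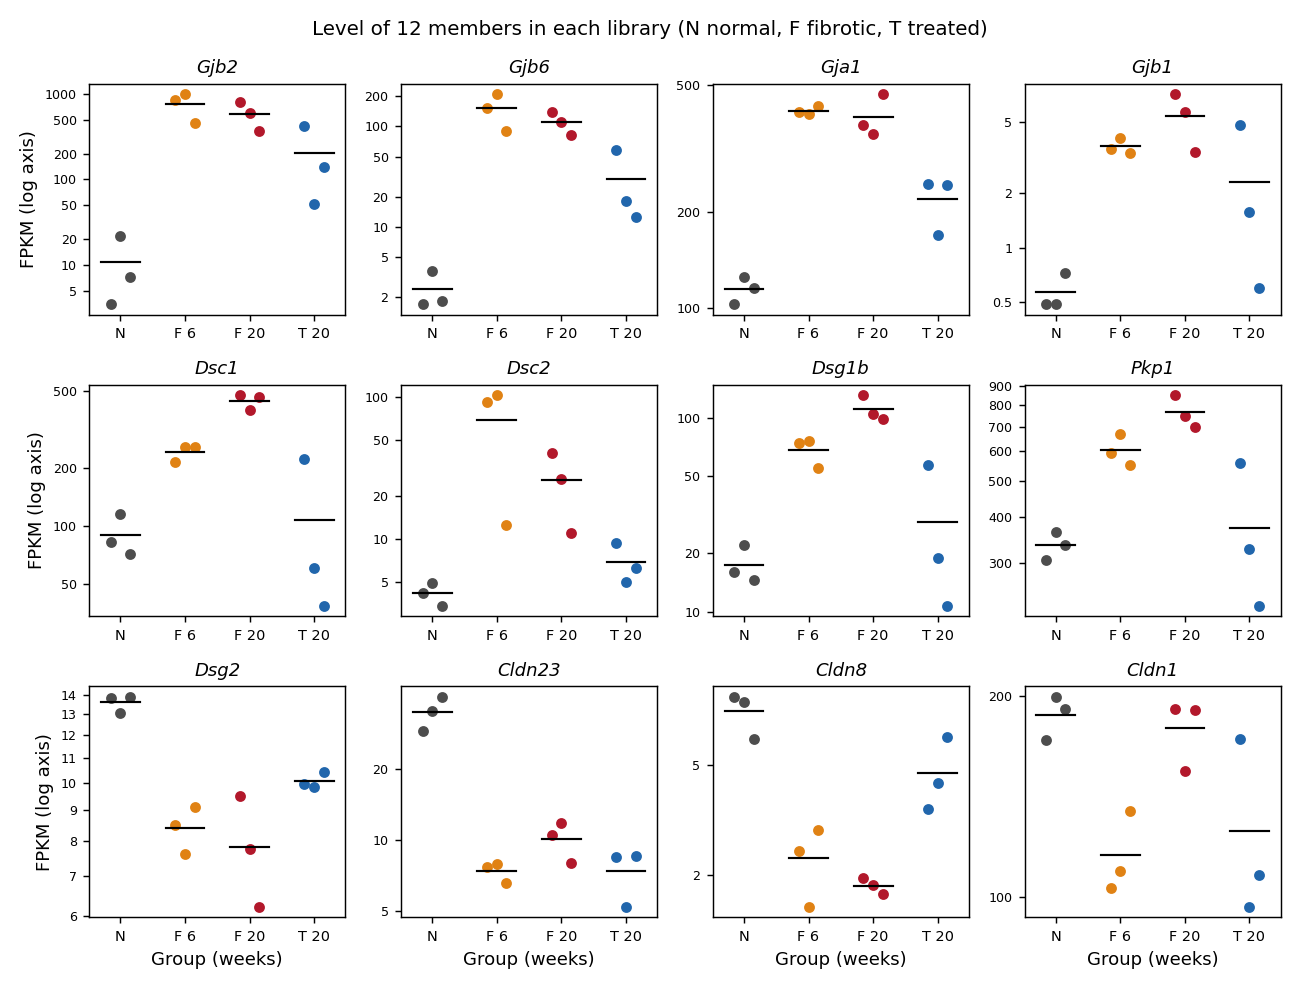
FPKM (vertical log axis, scaled for each gene) of 12 members in the 3 libraries of normal (N), fibrotic (F) and treated (T) skin at the weeks given. Points are libraries, from left to right replicates 1 to 3, and lines are group means. Gjb2 and Gjb6 stand far higher in all fibrotic libraries than in normal ones, Cldn23 falls and stays low in treated skin, and treated replicate 1 is the highest treated point for Gjb1, Dsc1, Dsg1b and Pkp1.

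These shifts changed which connexin made up most of the family's mRNA. Gjb2 held 3.26% ± 2.47 (SD, n = 3) of the summed connexin FPKM in normal skin, 49% ± 9.71 at 6 weeks, 39.8% ± 10.7 at 20 weeks and 26.2% ± 14.5 in treated skin. Gja1 held 36.7% ± 4.48, 28.1% ± 6.76, 28% ± 7.23 and 35.8% ± 10.6 in the same order. Gja1 thus went from the leading connexin to second place behind Gjb2 in the group means of fibrotic skin. Among single fibrotic libraries the exception was replicate 3 at 20 weeks, with 36.3% for Gja1 and 28.2% for Gjb2. The ratio of Gjb2 to Gja1 was 0.0339, 0.174 and 0.0631 in normal skin and 2.05, 2.46 and 1.06 at 6 weeks. At 20 weeks it was 2.13, 1.72 and 0.777, and in treated skin 1.73, 0.305 and 0.577.

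**Figure D4:**
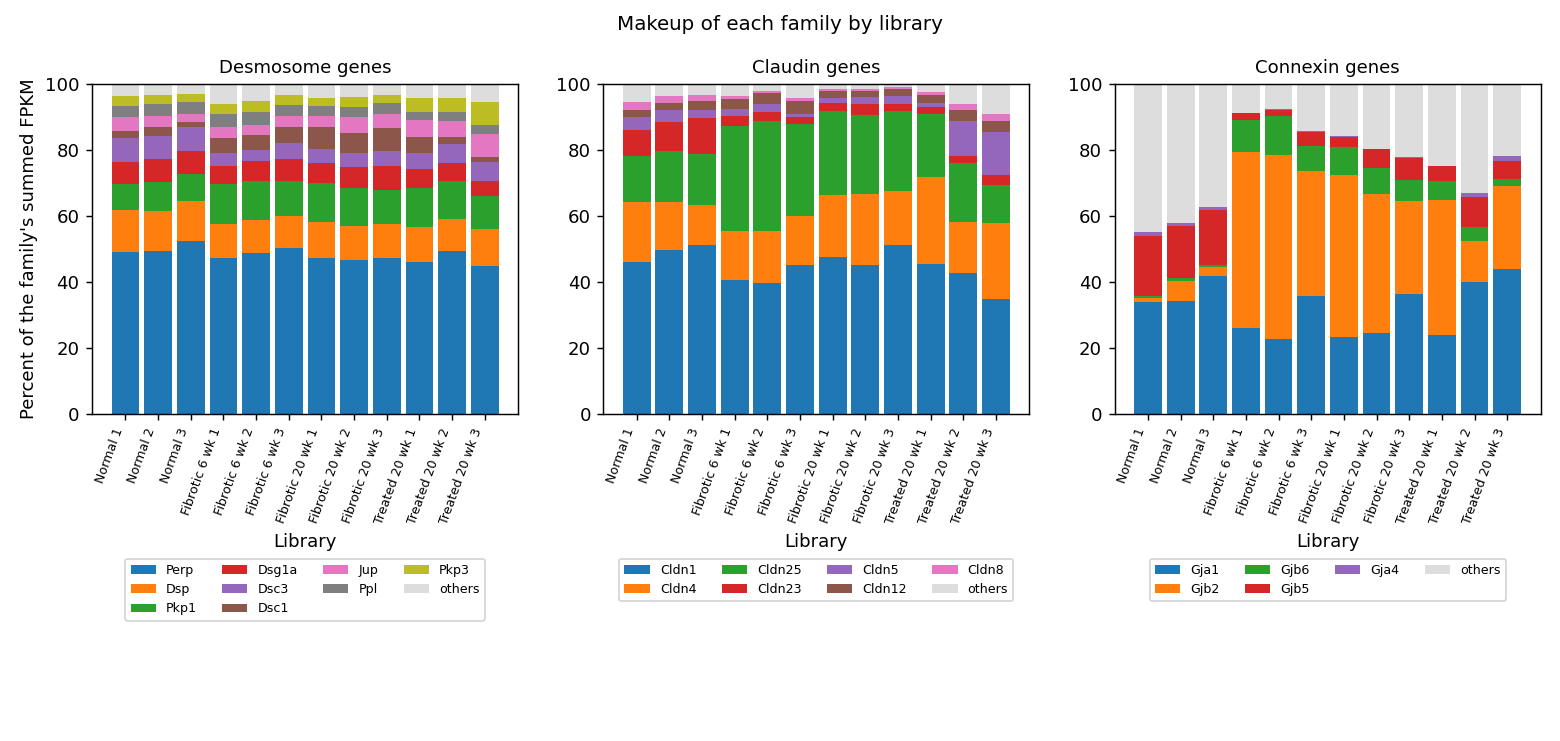
Share of each member in the summed FPKM of its family (vertical axis, percent) in each of the 12 libraries (horizontal axis), for desmosome genes, claudins and connexins. Colours mark the named members and grey all others together. Perp holds close to 50% of the desmosome sum in every library, while the orange Gjb2 segment widens from a mean of 3.26% ± 2.47 in normal skin to 49% ± 9.71 at 6 weeks.

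Among the desmosomal cadherins, the 2 desmocollins that rose belong to different layers. Dsc1, the desmocollin of the upper epidermis, was at 81.9, 114 and 71.2 FPKM in normal skin, 213, 256 and 257 at 6 weeks, 474, 396 and 462 at 20 weeks, and 221, 60.3 and 38.4 in treated skin. Fibrotic libraries exceeded normal ones without overlap, 20-week libraries exceeded 6-week ones, and treated replicates 2 and 3 lay below every normal library. Dsc1 rose by 1.45 ± 0.49 (SE, adjusted p = 0.04) at 6 weeks and by 2.33 ± 0.49 (SE, adjusted p = 0.00679) at 20 weeks. The 6-week call did not hold without any 1 of the 6 libraries compared (adjusted p up to 0.108). In the fit of only those 6 libraries it held (limma, adjusted p = 0.00216). In treated skin Dsc1 fell by 2.45 ± 0.49 on the log2 scale (SE, adjusted p = 0.0183) against fibrotic skin at 20 weeks.

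Dsc2, the desmocollin of basal and simple epithelia, was at 4.19, 4.9 and 3.43 FPKM in normal skin, 91.7, 102 and 12.7 at 6 weeks, 40.3, 26.4 and 11.1 at 20 weeks, and 9.37, 5.05 and 6.28 in treated skin. Replicate 3 was the lowest library in both fibrotic groups, and yet above all normal ones. It rose by 3.30 ± 0.70 (SE, adjusted p = 0.00534) at 6 weeks and by 2.22 ± 0.70 (SE, adjusted p = 0.034) at 20 weeks, the latter lost without any normal library or without fibrotic 20-week replicate 1 or 2 (adjusted p up to 0.117). Its difference in treated skin, -1.63 ± 0.70 (SE, adjusted p = 0.128), did not pass.

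Dsc3, the main desmocollin of normal skin and of the basal epidermis, did not share these rises. It was at 274, 284 and 306 FPKM in normal skin, 196, 206 and 245 at 6 weeks, 316, 260.4 and 317 at 20 weeks, and 226, 167 and 132 in treated skin. The 6-week libraries lay below normal skin and the 20-week libraries on both sides of the normal range, and neither difference passed (in the fit of 6 libraries the 6-week one did, limma, adjusted p = 0.0261). In treated skin Dsc3 fell by 0.79 ± 0.18 on the log2 scale (SE, adjusted p = 0.0229) against fibrotic skin and by 0.75 ± 0.18 on the log2 scale (SE, adjusted p = 0.0197) against normal skin. The call against fibrotic skin was lost without fibrotic 20-week replicate 1 or 3 or treated replicate 2 or 3 (adjusted p up to 0.0797), and the call against normal skin without normal replicate 3 (adjusted p = 0.0765). As FPKM are per length, Dsc1 and Dsc3 can be compared within a library. Their ratio was 0.299, 0.403 and 0.233 in normal skin, 1.08, 1.25 and 1.05 at 6 weeks and 1.5, 1.52 and 1.46 at 20 weeks, so that Dsc1 was the higher of both genes in every fibrotic library. In treated skin the ratio was 0.974, 0.362 and 0.292, with replicate 1 close to equal levels and replicates 2 and 3 in the normal range.

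Mouse Dsg1 is a small cluster of near-identical genes, so the split of reads between its copies is uncertain. Dsg1b was at 16, 22.1 and 14.6 FPKM in normal skin, 73.9, 76.1 and 55.2 at 6 weeks, 129.9, 104 and 98.6 at 20 weeks, and 57.1, 19 and 10.8 in treated skin. It rose by 1.91 ± 0.46 (SE, adjusted p = 0.00925) at 6 weeks and by 2.60 ± 0.46 (SE, adjusted p = 0.00296) at 20 weeks, with no overlap of fibrotic and normal libraries. It fell by 2.21 ± 0.46 on the log2 scale (SE, adjusted p = 0.019) in treated against fibrotic skin at 20 weeks. Dsg1a, the more abundant copy, was at 255, 306 and 295 FPKM in normal skin, 263, 342 and 334 at 6 weeks, 430.1, 416 and 505 at 20 weeks, and 269, 152 and 113 in treated skin. Its differences from normal skin, 0.13 and 0.66, did not pass, although the 20-week one did in the fit of 6 libraries (limma, adjusted p = 0.00878), while in treated skin it fell by 1.42 ± 0.26 on the log2 scale (SE, adjusted p = 0.0163) against fibrotic skin. Another copy, Dsg1c, stayed below the filter, with a highest level of 0.627 FPKM.

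Dsg2, the desmoglein of simple epithelia and of the follicle, went the other way. It was at 13.8, 13.1 and 13.9 FPKM in normal skin, 8.51, 7.62 and 9.11 at 6 weeks, 9.52, 7.76 and 6.22 at 20 weeks, and 9.94, 9.84 and 10.4 in treated skin. All normal libraries lay above all others, and the 3 treated libraries lay between normal and fibrotic skin. Dsg2 fell by 0.63 ± 0.13 on the log2 scale (SE, adjusted p = 0.00396) at 6 weeks and by 0.74 ± 0.13 on the log2 scale (SE, adjusted p = 0.00259) at 20 weeks. Against normal skin it also fell by 0.40 ± 0.13 on the log2 scale (SE, adjusted p = 0.0475) in treated skin, a call lost without any 1 of the 6 libraries (adjusted p up to 0.134) and with the block (adjusted p = 0.0681). The list of outer root sheath and follicle stem cells had 0 of 13 genes higher and 8 lower at 6 weeks, 0 higher and 11 lower at 20 weeks, and 8 higher and 0 lower in treated against fibrotic skin. Its summed level was 2495 to 3023 FPKM in normal skin, 649 to 797 at 6 weeks, 511 to 909 at 20 weeks and 852 to 1704 in treated skin, and its part in the results of Dsg2 and of Pkp2, described with the plakophilins, was not tested.

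For 5 members, exons overlap those of a gene on the opposite strand in the GENCODE M21 annotation. The longest such overlap is 499 bases for Dsp, 330 for Dsg2, 165 for Gja5, 90 for Cldn19 and 40 for Cldn3. No source used here says whether strand was used in counting.

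Dsg4, the desmoglein of the hair shaft, varied within groups. It was at 0.0455, 1.58 and 0.54 FPKM in normal skin, 6.25, 4.24 and 7.38 at 6 weeks, 1.28, 0.819 and 0.68 at 20 weeks, and 7.94, 1.6 and 14.9 in treated skin. The 6-week libraries and treated replicates 1 and 3 were high, and the 20-week libraries lay in the normal range. Dsg4 rose by 2.09 ± 0.56 (SE, adjusted p = 0.0158) at 6 weeks, and in treated skin it was higher by 1.91 ± 0.56 (SE, adjusted p = 0.0456) than in fibrotic skin at 20 weeks and by 2.16 ± 0.56 (SE, adjusted p = 0.0255) than in normal skin. The 6-week call was lost without normal replicate 1 (adjusted p = 0.0613). The call against fibrotic skin was lost without any 20-week fibrotic library or treated replicate 1 or 3 (adjusted p up to 0.157) and with the block (adjusted p = 0.0663). The call against normal skin was lost without normal replicate 1 or 3 or treated replicate 1 or 3 (adjusted p up to 0.0846). Of the 22 tested hair shaft genes, 13 were called higher and 0 lower at 6 weeks, 0 at 20 weeks, and 12 higher and 0 lower in treated against normal skin, so this list moved with Dsg4. Its part in the Dsg4 result was not tested. Dsg3, the desmoglein of the lower epidermis, ranged from 30.1 to 68.4 FPKM and was called in no comparison.

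**Figure D5:**
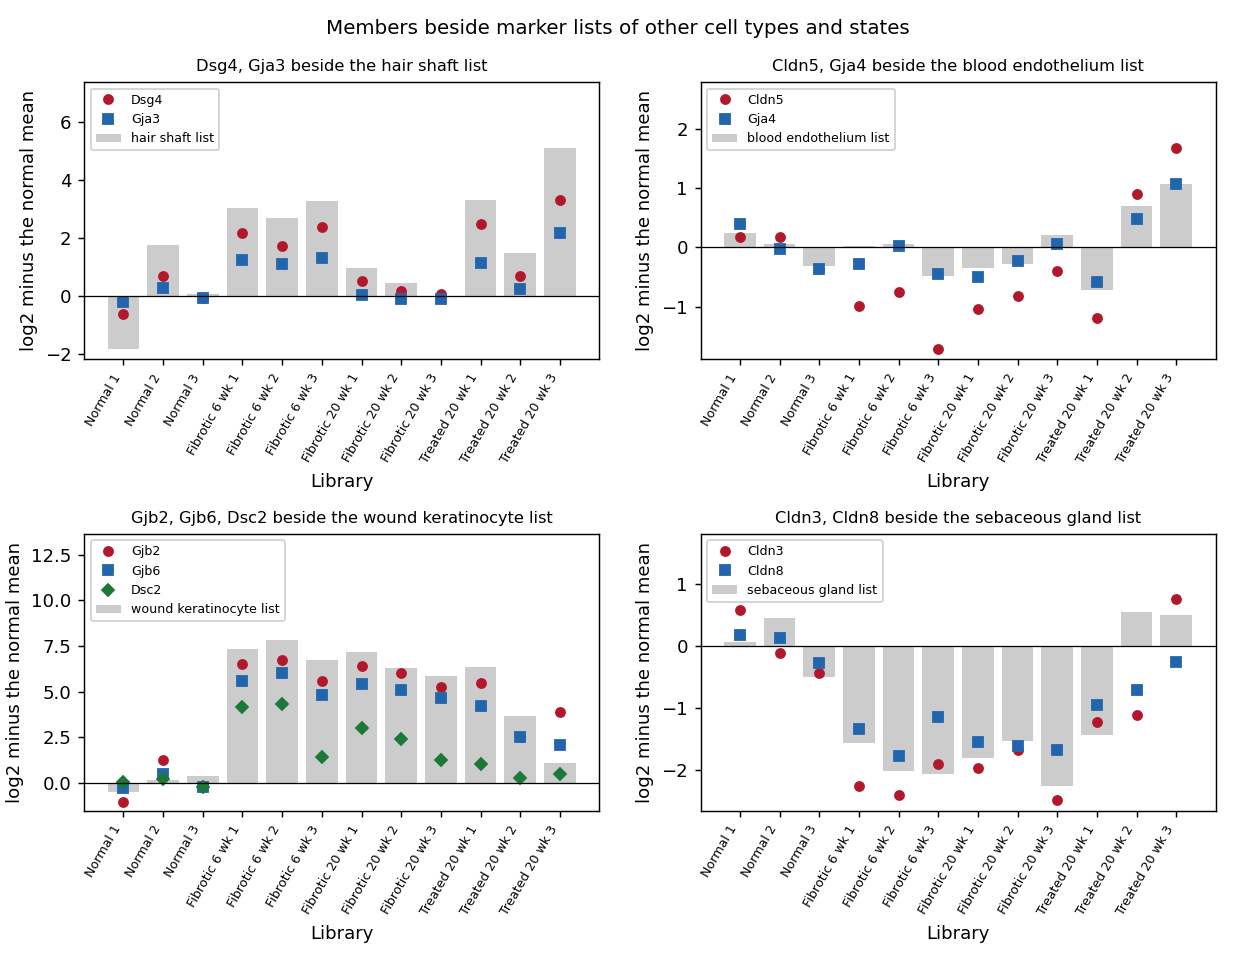
Members (points) beside the mean of a marker list (grey bars) in the 12 libraries (horizontal axis), both as log2(FPKM + 1) minus the mean of normal skin (vertical axis). Dsg4 and Gja3 stand high in the libraries with a high hair shaft list, Cldn5 and Gja4 are highest in treated replicates 2 and 3 as is the blood endothelium list, and Cldn3 and Cldn8 are low in the 6 fibrotic libraries, where the sebaceous gland list is low. The wound keratinocyte list stands as high as or higher than Gjb2, Gjb6 and Dsc2 in the 6 fibrotic libraries.

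The armadillo proteins lie between cadherins and keratin anchors, and their genes did not move alike. Pkp1, the plakophilin of the upper epidermis, was at 306, 363 and 335 FPKM in normal skin, 593, 668 and 552 at 6 weeks, 851, 750.0 and 697 at 20 weeks, and 559, 327 and 229.6 in treated skin. The 6 fibrotic libraries and treated replicate 1 lay above all normal libraries. Pkp1 rose by 0.85 ± 0.26 (SE, adjusted p = 0.0268) at 6 weeks and by 1.19 ± 0.26 (SE, adjusted p = 0.00768) at 20 weeks, and fell by 1.13 ± 0.26 on the log2 scale (SE, adjusted p = 0.0229) in treated against fibrotic skin at 20 weeks. The 6-week call was lost without normal replicate 1 or 3 or fibrotic 6-week replicate 1 or 2 (adjusted p up to 0.0868). That call held in the fit of only the 6 libraries compared (limma, adjusted p = 0.00291).

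Pkp3, which is found in most epidermal layers, was at 118, 123 and 97.8 FPKM in normal skin, 152, 182 and 161 at 6 weeks, 181, 194 and 169 at 20 weeks, and 191, 125 and 163 in treated skin. It rose by 0.55 ± 0.16 (SE, adjusted p = 0.0206) at 6 weeks and by 0.69 ± 0.16 (SE, adjusted p = 0.00923) at 20 weeks, and treated skin stayed above normal in all 3 libraries without passing the test (0.48, adjusted p = 0.0526). Both fibrotic calls were lost when libraries were scaled to the general epithelial list or rescaled (adjusted p up to 0.281), and the 6-week call also without normal replicate 3 or fibrotic 6-week replicate 2 (adjusted p up to 0.0785).

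Plakoglobin, the product of Jup, is shared by desmosomes and adherens junctions. Jup was at 162, 144 and 97.9 FPKM in normal skin, 167, 171 and 172 at 6 weeks, 255, 311 and 289.9 at 20 weeks, and 237, 137 and 159 in treated skin. Its 6-week libraries lay just above the normal ones and did not pass (0.37, adjusted p = 0.201), while at 20 weeks it rose by 1.11 ± 0.22 (SE, adjusted p = 0.00487). In treated skin the difference from fibrotic skin, -0.72 ± 0.22 (SE, adjusted p = 0.0511), did not pass.

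Pkp2 and Pkp4 fell in fibrotic skin. Pkp2, a plakophilin of simple epithelia, follicles and the heart, was at 3.31, 2.08 and 2.97 FPKM in normal skin, 1.42, 1.38 and 1.51 at 6 weeks, 1.15, 0.95 and 0.831 at 20 weeks, and 1.59, 2.55 and 3.8 in treated skin. Fibrotic libraries lay below normal ones at both times, and treated skin reached from just above the fibrotic range to above normal skin. Pkp2 fell by 0.62 ± 0.21 on the log2 scale (SE, adjusted p = 0.0369) at 6 weeks and by 0.93 ± 0.21 on the log2 scale (SE, adjusted p = 0.00829) at 20 weeks, and in treated skin it was higher than in fibrotic skin at 20 weeks by 0.84 ± 0.21 (SE, adjusted p = 0.0269). The 6-week call did not hold with the replicate block (adjusted p = 0.0527). It was also lost without normal replicate 1 or 3 or without any fibrotic 6-week library (adjusted p up to 0.125). In the fit of only the 6 libraries compared it held (limma, adjusted p = 0.0167).

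Pkp4, a plakophilin-like protein of desmosomes and adherens junctions in many tissues, was at 22.2, 18.9 and 27.5 FPKM in normal skin, 16.3, 18.5 and 16 at 6 weeks, 16.1, 13.8 and 11.9 at 20 weeks, and 17.8, 18.1 and 17.4 in treated skin. It fell by 0.40 ± 0.14 on the log2 scale (SE, adjusted p = 0.0439) at 6 weeks and by 0.67 ± 0.14 on the log2 scale (SE, adjusted p = 0.00639) at 20 weeks, and no fibrotic library reached the normal range. The 6-week call did not hold with the block (adjusted p = 0.0736), nor without normal replicate 1 or 3 or any fibrotic 6-week library (adjusted p up to 0.145).

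The plakins Dsp, Ppl and Evpl tie desmosomes and the cornified envelope to keratins. Desmoplakin, the product of Dsp, was at 486, 517 and 509 FPKM in normal skin, 491, 580.4 and 492 at 6 weeks, 789, 651 and 684 at 20 weeks, and 496, 275 and 267 in treated skin. Normal and 6-week levels overlapped, 20-week levels were higher without passing (0.48, adjusted p = 0.101, or 0.0191 in the fit of 6 libraries), and treated replicates 2 and 3 were the lowest of the 12. Dsp fell by 1.09 ± 0.21 on the log2 scale (SE, adjusted p = 0.0177) in treated against fibrotic skin at 20 weeks.

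Periplakin, the product of Ppl, was at 132, 149 and 155 FPKM in normal skin, 190.3, 231 and 162 at 6 weeks, 201, 196 and 225 at 20 weeks, and 125, 78.9 and 67.5 in treated skin. It did not pass at 6 weeks (0.41) or 20 weeks (0.51, limma, adjusted p = 0.0111 in the fit of 6 libraries), fell by 1.23 ± 0.21 on the log2 scale (SE, adjusted p = 0.0151) in treated against fibrotic skin, and fell by 0.72 ± 0.21 on the log2 scale (SE, adjusted p = 0.0366) against normal skin. The last call was lost without any normal library or without treated replicate 2 or 3 (adjusted p up to 0.119), and with the block (adjusted p = 0.0581). Envoplakin, the partner of periplakin, was at 36.9, 34.1 and 21.5 FPKM in normal skin, 38.7, 40.6 and 35 at 6 weeks, 50.4, 65.1 and 59.8 at 20 weeks, and 49.4, 28.3 and 37.3 in treated skin. Evpl rose by 0.93 ± 0.23 (SE, adjusted p = 0.0119) at 20 weeks, when its 3 libraries were the highest of the 12, and its difference in treated skin of -0.62 did not pass (adjusted p = 0.0848).

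Perp, a membrane protein needed for desmosome assembly, had the highest level of all members. It was at 1888, 2079 and 2194 FPKM in normal skin, 2300.3, 2792 and 2556 at 6 weeks, 3413, 3012 and 3218 at 20 weeks, and 2153, 1410.1 and 1052 in treated skin. Fibrotic libraries lay above normal ones at both times, but neither 0.31 at 6 weeks nor 0.65 at 20 weeks passed (adjusted p = 0.3 and 0.0514). In the fit of 6 libraries the 20-week difference did (limma, adjusted p = 0.0166). Perp fell by 1.12 ± 0.23 on the log2 scale (SE, adjusted p = 0.0186) in treated against fibrotic skin at 20 weeks. Its share of the summed desmosome FPKM was 50.2% ± 1.84 (SD, n = 3) in normal skin, 48.7% ± 1.4 at 6 weeks, 47.1% ± 0.356 at 20 weeks and 46.7% ± 2.44 in treated skin.

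Claudins were called mostly in the other direction. Cldn23 showed the clearest fall. This claudin of the upper epidermis was at 29.3, 35.6 and 40.8 FPKM in normal skin, 7.7, 7.9 and 6.53 at 6 weeks, 10.5, 11.8 and 7.95 at 20 weeks, and 8.48, 5.18 and 8.57 in treated skin. All 9 libraries of fibrotic and treated skin lay below all normal libraries. Cldn23 fell by 2.10 ± 0.20 on the log2 scale (SE, adjusted p = 0.000147) at 6 weeks, by 1.71 ± 0.20 on the log2 scale (SE, adjusted p = 0.000578) at 20 weeks and by 2.12 ± 0.20 on the log2 scale (SE, adjusted p = 0.00103) in treated skin against normal skin. These correspond to mean levels 4.78-fold, 3.49-fold and 4.76-fold below normal. Treated and fibrotic skin at 20 weeks overlapped (-0.41, adjusted p = 0.166).

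Cldn8 and Cldn3 are barrier claudins of glandular and other epithelia. Cldn8 was at 8.78, 8.45 and 6.16 FPKM in normal skin, 2.45, 1.53 and 2.91 at 6 weeks, 1.95, 1.84 and 1.71 at 20 weeks, and 3.47, 4.31 and 6.26 in treated skin. It fell by 1.43 ± 0.21 on the log2 scale (SE, adjusted p = 0.000977) at 6 weeks and by 1.62 ± 0.21 on the log2 scale (SE, adjusted p = 0.000782) at 20 weeks, and in treated skin it was higher than in fibrotic skin at 20 weeks by 0.98 ± 0.21 (SE, adjusted p = 0.0198). All 3 treated libraries lay above the 20-week fibrotic range.

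Cldn3 was at 8.65, 4.97 and 3.8 FPKM in normal skin, 0.349, 0.221 and 0.737 at 6 weeks, 0.664, 1.02 and 0.152 at 20 weeks, and 1.77, 2.01 and 9.9 in treated skin. It fell by 2.20 ± 0.48 on the log2 scale (SE, adjusted p = 0.00636) at 6 weeks and by 2.05 ± 0.48 on the log2 scale (SE, adjusted p = 0.0103) at 20 weeks. Treated libraries lay above all fibrotic ones, with replicates 1 and 2 below and replicate 3 above the normal range, a difference that did not pass (1.52, adjusted p = 0.0583). The sebaceous gland list, with 12 tested genes, had 0 called higher and 9 lower at 6 weeks and 1 higher and 8 lower at 20 weeks. Its summed level was 932 to 1692 FPKM in normal skin, 428 to 525 at 6 weeks, 523 to 574 at 20 weeks and 615 to 2469 in treated skin, and its part in the Cldn3 and Cldn8 results was not tested.

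Cldn10, found in secretory epithelia such as sweat and salivary glands, was at 5.49, 3.81 and 3.06 FPKM in normal skin, 4.06, 2.44 and 7.56 at 6 weeks, 1.72, 1.23 and 0.987 at 20 weeks, and 4.66, 4.86 and 6.61 in treated skin. The 20-week libraries were the lowest 3 of the 12. Cldn10 fell by 1.13 ± 0.30 on the log2 scale (SE, adjusted p = 0.0178) at 20 weeks and was higher by 1.46 ± 0.30 (SE, adjusted p = 0.019) in treated than in fibrotic skin. The 20-week call was lost without normal replicate 1 or fibrotic 20-week replicate 2 or 3 (adjusted p up to 0.0662).

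Cldn1, the claudin without which the epidermal barrier fails, had the highest level of its family. It was at 172, 199.6 and 191 FPKM in normal skin, 103, 109.6 and 134 at 6 weeks, 192, 155 and 191 at 20 weeks, and 172, 96.7 and 108 in treated skin. It was lower at 6 weeks in all 3 libraries and at or near the normal range at 20 weeks. Cldn1 fell by 0.70 ± 0.20 on the log2 scale (SE, adjusted p = 0.0208) at 6 weeks, and its differences from normal of -0.07 at 20 weeks and -0.62 in treated skin did not pass. The call was lost without normal replicate 2 or 3 or fibrotic 6-week replicate 1 or 2 (adjusted p up to 0.0706). In the fit of only the 6 libraries compared it held (limma, adjusted p = 0.00645).

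The row named Cldn25 behaved unlike the other claudins. RefSeq lists that symbol as an older name of both Cldnd1 and Cldn25-ps, neither of which is a row, so which gene the row holds cannot be told apart. It was at 52.8, 61.8 and 57.7 FPKM in normal skin, 80.9, 92.5 and 83.3 at 6 weeks, 103, 81.8 and 90.5 at 20 weeks, and 72.5, 40.1 and 36.1 in treated skin. It rose by 0.66 ± 0.22 (SE, adjusted p = 0.0398) at 20 weeks, a call lost without any 1 of the 6 libraries (adjusted p up to 0.121) and with the block (adjusted p = 0.0506), and fell by 0.94 ± 0.22 on the log2 scale (SE, adjusted p = 0.0229) in treated skin against fibrotic skin. Its 6-week libraries also lay above all normal ones without passing (0.57, adjusted p = 0.0604). In fits of the 6 libraries compared, the 20-week call held and the 6-week difference passed (limma, adjusted p = 0.00592 and 0.00507).

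The other 5 tested claudins were called in no comparison in the fit of 12 libraries. In fits of 6 libraries, Cldn5 fell by 1.16 and 0.75 on the log2 scale at 6 and 20 weeks against normal skin (limma, adjusted p = 0.0168 and 0.0347), and Cldn19 by 0.59 and 0.67 (0.0378 and 0.0363). Cldn4, the second claudin of normal skin together with Cldn25, ranged from 34.9 to 101 FPKM. Cldn12, a claudin linked to calcium transport, was the steadiest at 7.18 to 11.4 FPKM. Cldn15 ranged from 0.527 to 3.81 FPKM and Cldn19, a claudin of kidney and myelin, from 0.256 to 2.35 FPKM. Cldn5, the tight junction claudin of blood vessels, was at 13.9, 13.9 and 9.29 FPKM in normal skin, 5.62, 6.77 and 3.03 at 6 weeks, 5.44, 6.49 and 8.99 at 20 weeks, and 4.79, 23.7 and 41.2 in treated skin. Treated replicates 2 and 3 held the most Cldn5, as they held the most of the blood endothelium list, whose part in these levels was not tested.

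Cldn1 led the claudins in every group. Cldn1 held 48.9% ± 2.57 (SD, n = 3) of the summed claudin FPKM in normal skin, 41.7% ± 2.93 at 6 weeks, 47.9% ± 3.15 at 20 weeks and 40.9% ± 5.48 in treated skin. Cldn23 held 9.21% ± 1.55, 2.69% ± 0.44, 2.73% ± 0.664 and 2.42% ± 0.287 in that order. The Cldn25 row held 15% ± 0.708, 31% ± 2.81, 24.5% ± 0.829 and 16.1% ± 3.97. The ratio of Cldn4 to Cldn1 averaged 0.307 ± 0.0767 in normal skin, 0.363 ± 0.0342 at 6 weeks, 0.398 ± 0.0831 at 20 weeks and 0.536 ± 0.157 in treated skin.

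Genes of wounded keratinocytes were also higher in fibrotic skin. Of the 12 genes of the wound keratinocyte list, which holds Krt6a, Krt16, S100a8 and others, 11 were called higher and 0 lower at both times against normal skin. The list was chosen with earlier results of these data known, so this count is a description only. Its summed level was 457 to 648 FPKM in normal skin, 23950.2 to 39722 at 6 weeks, 14542 to 23671 at 20 weeks and 1423 to 15798 in treated skin. Within treated skin the sums were 15798, 3889 and 1423 FPKM, again with replicate 1 highest. Gjb6 followed this order, while Gjb2 and Dsc2 were higher in treated replicate 3 than in replicate 2. The general epithelial list had 3 of 11 genes higher and 1 lower at each time against normal skin. The part of these lists in the members' differences was not tested.

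Between the 2 fibrotic time points, none of the 41 members was called by limma, beside 0.0363% of all tested genes. At an unadjusted p under 0.05 there were 11 members, beside 19.9% of all tested genes. Among the 17 desmosome genes, 9 had all 20-week libraries above all 6-week ones and 2 had them all below. Over all 41 members these counts were 14 and 4, beside 17.9% and 13% of all tested genes. Of the members described here, the largest differences upward were those of Dsc1 at 0.88 ± 0.49 (SE, adjusted p = 0.357), Gjb5 at 0.85 ± 0.25 (SE, adjusted p = 0.122) and Jup at 0.74 ± 0.22 (SE, adjusted p = 0.124). The largest downward were those of Dsg4 at -1.84 ± 0.56 (SE, adjusted p = 0.136), Gja3 at -1.27 ± 0.37 (SE, adjusted p = 0.125) and Cldn10 at -1.21 ± 0.30 (SE, adjusted p = 0.0994). A fit of these 6 libraries alone called 8 members (among them Cldn4, Dsc1, Evpl and Jup higher, Dsg4 and Gja3 lower), beside 3.47% of all tested genes.

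Treated skin held less of many desmosome genes than fibrotic skin of the same time point. Of the 41 members, 12 were called lower and 4 higher, which is 39% of them against 15.3% of all tested genes (10.9% lower and 4.45% higher). Lower were 8 desmosome genes (Dsc1, Dsc3, Dsg1a, Dsg1b, Dsp, Perp, Pkp1 and Ppl), 3 connexins (Gja1, Gjb5 and Gjb6) and Cldn25. Higher were Cldn8, Cldn10, Dsg4 and Pkp2. The median difference over the members was -0.44, against a median of all tested genes within 0.01 of 0. The cornified envelope list had 0 of 17 genes higher and 11 lower in this comparison, after 15 higher and 2 lower at 6 weeks and 13 higher and 2 lower at 20 weeks against normal skin, and its summed level was 3889 to 5835 FPKM in normal skin, 10304 to 17107 at 6 weeks, 10338 to 13351 at 20 weeks and 2884 to 7575 in treated skin. The suprabasal keratinocyte list had 0 of 7 genes higher and 4 lower. Against normal skin it had 1 higher and 2 lower at 6 weeks, and 2 higher and 2 lower at 20 weeks. Its summed level was 14267 to 17697 FPKM in normal skin, 22063 to 26983 at 6 weeks, 29649.5 to 32285 at 20 weeks and 8007 to 20644 in treated skin. The mean log2 level of its genes at 6 weeks was -0.17, -0.05 and 0.25 from normal skin, so the sum does not stand for every gene. The part of both lists in these results was not tested. The comparison shares the 20-week fibrotic libraries with that of fibrotic and normal skin, so opposite signs in both are not independent.

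These calls depended on single libraries and on the other groups in the fit. The fit of 12 libraries shares 1 spread per gene among all 4 groups, although the treated libraries spread most. None of the 41 members was called by limma in a fit of only the 6 libraries compared, which called 3 of all genes, or 0.0218%. In that fit 25 members had an unadjusted p under 0.05, beside 25.1% of all tested genes. Without fibrotic 20-week replicate 3 none was called either, beside 0.0218% of all tested genes, and 25 members had an unadjusted p under 0.05, beside 28% of all tested genes. None of the 16 calls was kept in every fit that left out 1 library: without fibrotic 20-week replicate 1 there were 5, and without replicate 2 there were 11. Without treated replicate 2 there were 6 calls and without treated replicate 3 there were 3. The calls of Dsc1, Dsg1b, Dsp, Perp, Cldn8 and Cldn25 were each lost without fibrotic 20-week replicate 1 or 3. They were also lost without treated replicate 2 or 3 (limma, adjusted p up to 0.0813 over these fits). Those of Pkp1 and Pkp2 were lost without any fibrotic 20-week library or without treated replicate 2 or 3 (adjusted p up to 0.0909). Without treated replicate 1, 11 members were called higher and 19 lower, which is 30 of 41 against 37.9% of all tested genes. Scaling also mattered: 8 members were called higher and 11 lower after rescaling, and 6 higher and 9 lower with libraries scaled to the general epithelial list. Where no share over all tested genes stands beside a count, it does not show whether members changed more than other genes.

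Leaving out treated replicate 1 sets aside the treated library nearest to fibrotic skin at 20 weeks in these same members. That choice tends to enlarge the differences, so the p-values of this fit are descriptive. Among the members called when treated replicate 1 was left out were 15 of the original 16. Gjb2 then fell by 2.70 on the log2 scale (limma, adjusted p = 0.0127), Gjb1 by 1.61 (0.00177) and Jup by 0.94 (0.00462). Higher were Cldn3 by 1.87 (0.0164) and the vascular members Cldn5 by 2.04 (0.00171) and Gja4 by 0.99 (0.0171). Dsc1 fell by 3.17 (0.000246), against 2.45 with all libraries.

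Fewer members were called between treated and normal skin, and the treated libraries spread more. Of the 41 members, 4 were called higher and 4 lower than in normal skin, 19.5% of them against 20.7% of all tested genes (7.57% higher and 13.2% lower), so the members' share was near the background. Higher were Gjb2, Gjb6, Gja1 and Dsg4, and lower were Cldn23, Dsc3, Dsg2 and Ppl. With libraries scaled by median-of-ratios factors the split was 5 higher and 2 lower. Without treated replicate 1 there were 15 calls, 6 higher and 9 lower, beside 22.5% of all tested genes. The call of Dsg2 and that of Dsg4 were lost, and 9 were added. Added as lower were Dsg1a by 1.11 (limma, adjusted p = 0.00509), Dsp by 0.89 (0.00371), Dsc1 by 0.85 (0.03), Perp by 0.75 (0.0189), Cldn1 by 0.87 (0.00635) and Cldn25 by 0.58 (0.0127) on the log2 scale. Added as higher were Cldn5 by 1.29 (0.0257), Gja5 by 0.94 (0.0154) and Cldn15 by 0.71 (0.0308). Without normal replicate 1 there were 5 and without normal replicate 3 there were 4. In a fit of only these 6 libraries, Cldn23 was the 1 member called, beside 1% of all tested genes.

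Other junction genes, from lists chosen alongside the members, moved in part with them. Of 17 genes of tight junction scaffolds and other tight junction membrane proteins, 0 were called higher and 9 lower at 6 weeks, and 1 higher and 7 lower at 20 weeks, with medians of -0.28 and -0.16. Ocln, which encodes occludin, fell by 1.61 on the log2 scale at 6 weeks and by 0.85 at 20 weeks (limma, adjusted p = 0.000186 and 0.00435). Marveld2, for tricellulin, which seals the corners where 3 cells meet, fell by 1.13 and 0.75 (0.00214 and 0.0165), and Tjp1 was the 1 gene higher at 20 weeks, by 0.58 (0.00703). In treated against normal skin 0 of the 17 were higher and 7 lower.

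Of 11 adherens junction genes, 1 was higher and 2 lower at each time. The nectin gene Pvrl3 fell by 2.63 and 2.71 on the log2 scale (limma, adjusted p = 0.000115 and 0.000246). Of 12 partners of the cornified desmosome and envelope, 6 were higher and 2 lower at 6 weeks, 8 higher and 2 lower at 20 weeks, and 0 higher and 7 lower in treated against fibrotic skin. Cdsn, for corneodesmosin, which holds cornified cells together with Dsg1 and Dsc1, rose by 1.27 and 1.77 (0.0161 and 0.00467) and in treated skin fell by 1.66 (0.0192). Among the pannexins, channel proteins related in shape to connexins, Panx3 was the 1 called of 2 tested, and fell by 2.64 and 2.54 (0.0069 and 0.00973).

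Of the 59 members, 18 stayed below the filter, among them 14 claudins, 3 connexins and Dsg1c. Cldn13, Cldn16, Cldn24 and Gja10 were listed at 0 in all 12 libraries. Cldn7 reached 1 FPKM in 2 libraries, with a highest level of 1.97, and Cldn14, Cldn17 and Cldn20 in 1 library each, with highest levels of 2.09, 1.87 and 1.17. The highest levels of Cldn22, Cldn9 and Cldn11 were 0.932, 0.815 and 0.648 FPKM. Cldn2 reached 0.374, Gja6 0.328, Cldn26 0.118, Cldn18 0.116 and Cldn6 0.112 FPKM. Just inside the filter were, among others, Cldn19 and Gjc3, with 4 libraries at 1 FPKM or more, and Gja3 with 5. Of the 41 that passed, 30 were at 1 FPKM or more in every library, and none reached it in 1 group only.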

How the data were processed

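The authors deposited 1 table of FPKM values for 12 libraries, made from skin RNA with poly-T selection and a stranded kit, per the labels' protocols. The submitters' processing notes name R 3.1.1, Cufflinks 2.2.1, TopHat2 2.0.13, Bowtie2 2.2.3, cutadapt 1.7.1, SAMtools 1.0, FastQC 0.11.2 and the mm10 assembly. What each tool did, the annotation, the use of strand and each library's depth were not given in the sources used here. Genes reaching 1 FPKM in 3 or more libraries were fitted as log2(FPKM + 1) in limma 3.58.1 (R 4.3.3), in 1 fit of 12 libraries with an intensity trend. A pseudocount of 1 understates changes of low genes. Tests were 2-sided with Benjamini-Hochberg adjustment over 13761 genes, for 5 comparisons, and calls were at 0.05. The script was tested on simulated data. With 3 libraries a group, no exact permutation p can be under 0.10, so none was run. The members and all gene lists were chosen with earlier results of these data known. A few members are not reported here, though counts over the members include them. Of the others, those called in any comparison, and the highest of each family, have all values printed. Same-numbered 6-week and normal libraries deviated together (correlations of 0.159, 0.227 and 0.108 over all tested genes), although 6-week replicate 3 correlated more with normal replicate 1 (0.191). Blocked values are therefore printed beside calls they change. Genes listed at 0 in some libraries and at 10 FPKM or more in the rest, 22 in all, were left out of the marker lists. Alternatives were another pseudocount, 2 other filters, 3 scalings, fits of 6 libraries, the replicate block, and leaving out each library.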

Additional observations from a re-analysis of the deposited data

How the results depend on the processing

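No called member changed direction under any alternative. Counts of members given below without a share over all tested genes do not show whether members changed more than other genes. At 6 weeks against normal skin, 19 members were called, with a range of 11 to 16 when 1 library was left out (12 without normal replicate 1, 12 without normal replicate 3, 12 without 6-week replicate 1 and 11 without 6-week replicate 2) and 12 of 27 members when a mean of 5 FPKM was asked. Of the 19, 10 were kept in every leave-one-out fit and 12 under all other settings in which they were tested. Members under a mean of 5 FPKM were not tested with that filter and are not counted as lost there. At 20 weeks against normal skin the count of 21 ranged from 17 to 19 when 1 library was left out, and 17 of the 21 were kept in each of these fits. With only the 6 libraries compared these counts were 22 and 28. At 20 against 6 weeks it was 0 in all these fits and 8 with only the 6 libraries compared. In treated against fibrotic skin the count of 16 ranged from 0 to 30 when 1 library was left out and was 0 with only the 6 libraries compared. In treated against normal skin the count of 8 ranged from 4 to 15 and was 1 with only the 6 libraries compared. The fit of 12 libraries gives each gene 1 spread, shared by all 4 groups. The median spread of the members was 0.47 in treated skin and 0.19 to 0.25 in the other groups. The SE of comparisons with treated skin may thus be too small, and that of fibrotic against normal skin too large. Fits of 6 libraries use only the spread of the groups compared. The cause of these changes was not tested.

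Scaling to the totals left after muscle, hair shaft and cornified envelope genes were set aside gave median differences over all tested genes of -0.36 for the 6-week and -0.33 for the 20-week comparison with normal skin, and of 0.24 in treated against fibrotic skin. Among the members described here, it ended the 6-week calls of Dsc1, Pkp1 and Pkp3, the 20-week calls of Cldn25 and Pkp3, that of Gjb5 in treated against fibrotic skin and that of Dsg2 in treated against normal skin. Scaling to the general epithelial list gave medians of -0.22, -0.32 and 0.33 in that order, and of -0.10 at 20 against 6 weeks. Among the same members, it ended the 6-week calls of Gja3, Pkp2 and Pkp3, the 20-week calls of Evpl and Pkp3, those of Dsc3, Gja1 and Gjb5 in treated against fibrotic skin and that of Dsg2 in treated against normal skin. Median-of-ratios scaling ended the 6-week call of Pkp4 and, in treated against normal skin, those of Dsg2 and Ppl. With no filter on low values, the calls of Dsc1 and Pkp4 at 6 weeks, Cldn25 and Dsc2 at 20 weeks, Dsg4, Gjb5 and Perp in treated against fibrotic skin, and Dsg2 and Ppl in treated against normal skin were lost. A pseudocount of 0.1 ended those of Dsg4 in treated against fibrotic skin and of Dsg2 in treated against normal skin.

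With the replicate number as a block, 16 members were called at 6 weeks and 20 members at 20 weeks relative to normal skin, 0 at 20 against 6 weeks, 14 in treated against fibrotic skin and 6 in treated against normal skin. Beside the losses printed with each member, the block ended no other call of a member described here. In the comparisons other than 6 weeks against normal, same-numbered libraries did not all deviate together. Treated and fibrotic 20-week libraries of replicate 1 correlated at 0.291, while those of replicates 2 and 3 had -0.052 and 0.000725. Treated replicate 2 and normal replicate 1, of unlike number, reached 0.418, so whether the number marks pairs is not known. Depth limits are unknown because the table holds no counts.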
